A study of Caenorhabditis elegans with 12 samples.

Results

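The FMRFamide-like peptide (flp) and insulin-like peptide (ins) genes of C. elegans were followed through embryogenesis in wild-type embryos and in embryos without the miR-51 family (miR-51Fam). Members were all genes whose symbol in the WBcel235 annotation is flp or ins followed by a number, which gave 69 genes (31 flp and 38 ins) among the 20362 genes counted. Of these, 34 (19 flp and 15 ins) had 20 or more reads in total over all libraries and were tested. A further 17 (9 flp and 8 ins) had reads but fewer than 20, and 18 (3 flp and 15 ins) had no read in any library.

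Both families encode small secreted signals that are cut from longer precursors and stored in dense-core vesicles. FMRFamide-like peptides are amidated at the carboxyl end, are made mainly by neurons and act on G protein-coupled receptors to modulate locomotion, feeding, egg laying and sleep-like states. Insulin-like peptides act on the receptor tyrosine kinase DAF-2, some as agonists and some as antagonists, and through a phosphoinositide 3-kinase cascade they keep the transcription factor DAF-16 out of the nucleus, a pathway known for its control of dauer arrest, growth and life span.

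Polyadenylated RNA of whole embryos was measured by QuantSeq, in which reverse transcription is primed on the poly(A) tail, so that reads lie at the 3′ end and do not scale with gene length. The miR-51Fam null group was strain MLC1800, in which all family members from mir-51 to mir-56 are deleted and which carries lucEx1057, an extrachromosomal rescue array with a fosmid of the miR-54 cluster and the markers ttx-3::gfp and mir-35p::gfp. How embryos without the array were picked was not analysed here. The reference was the wild-type (WT) strain N2. Both were grown at 20 °C on OP50 bacteria. Per the study's methods, embryos were collected at the 2-cell stage and developed in M9 buffer to the wanted time point. The time points are labelled as the 190-cell stage, the bean stage and the 2-fold stage of elongation. Each of the 6 groups had 2 libraries of 50 embryos.

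Levels are given as CPM, a gene's reads over its TMM-scaled library size, which makes libraries of unlike depth comparable. Assigned reads ranged over 887059 to 9558104 in 11 libraries, and null 190-cell replicate 1 had 11081. Molecules seemed to have been sequenced repeatedly: genes with low counts gave an estimate of 3.55 to 53.8 reads per molecule, and of 1.10 for the shallow library, so that 3 molecules over the pair of libraries of a group corresponded to 7.24 to 21.5 CPM. Most flp genes and many ins genes were near or below that level, which limits what could be detected. Other libraries also stood apart. Null bean replicate 1 held reads of 15 flp genes, against 4 in null bean replicate 2, and WT 190-cell replicate 1 held a summed flp level of 98.6 CPM, against 14.9 CPM in its replicate. The 6 vitellogenin genes, markers of maternal intestine and yolk, summed to 0 to 40.7 CPM in null libraries and to 185 to 4278 CPM in WT libraries. The 3 germline markers (pgl-1, glh-1 and nos-2) summed to 0 to 133 CPM in null libraries and to 160.4 to 718 CPM in WT libraries. The 11 neuronal markers summed to 527 to 664 CPM in the null libraries other than the shallow one and to 419 to 713 CPM in WT libraries. Most of this sum came from snb-1 and unc-119, and the markers did not move together. In order of stage, WT means were 301, 173 and 122 CPM for unc-119 and 3.88, 39.4 and 56.0 CPM for unc-64. The sum is thus no measure of neuronal content. In whole embryos, fewer cells of a type and less RNA per cell cannot be told apart.

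**Figure D1:**
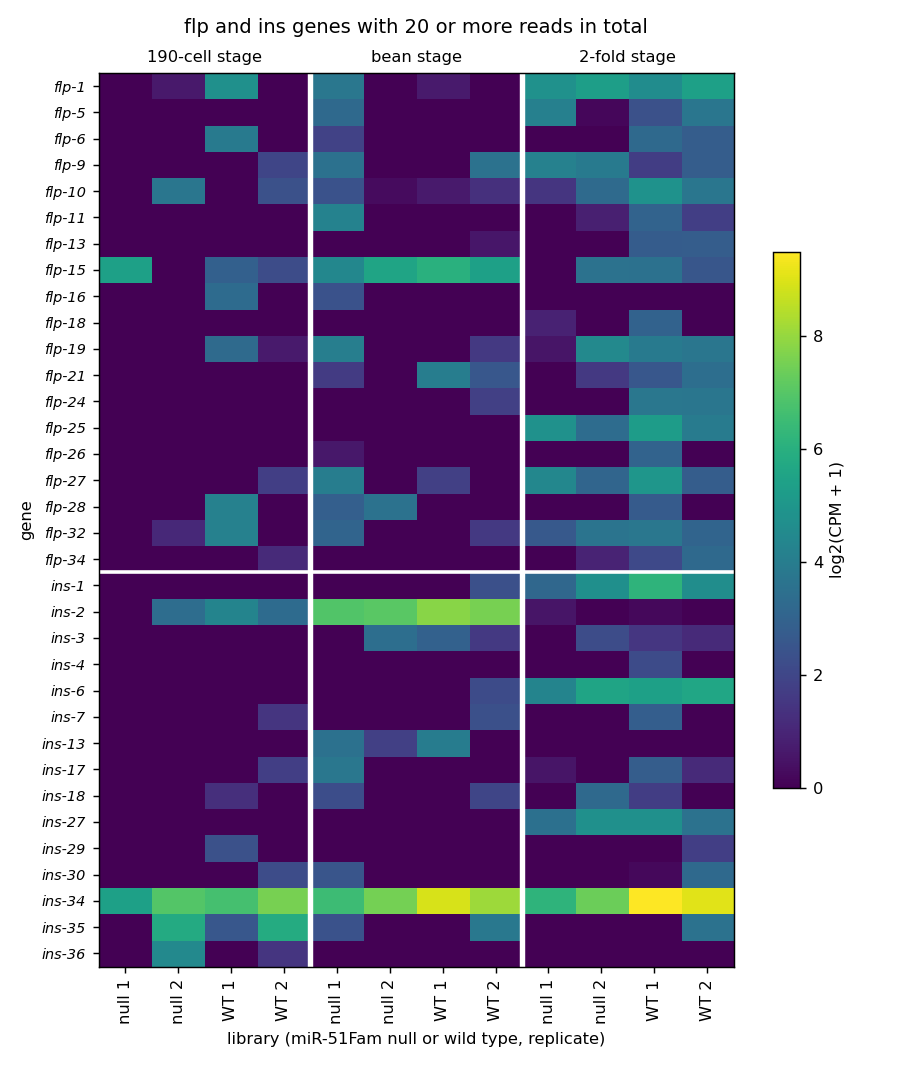
Level of the 34 tested peptide genes (rows, flp above and ins below) in the 12 libraries (columns, with null left of WT at each stage), as log2(CPM + 1) in colour. ins-34 was the only gene with reads in all 12 libraries, ins-2 was brightest in the 4 bean libraries, and 12 genes had reads in all 4 libraries of the 2-fold stage.

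Reads in all libraries of a stage were found for more peptide genes at the 2-fold stage than earlier. At that stage 12 members had reads in all 4 libraries: flp-1, flp-5, flp-9, flp-10, flp-19, flp-25, flp-27, flp-32, ins-1, ins-6, ins-27 and ins-34. The bean stage had 4 such members (flp-10, flp-15, ins-2 and ins-34) and the 190-cell stage 1 (ins-34), where the shallow library sets the limit. Counting members with reads in both libraries of a group, null embryos of the 190-cell stage had 0 flp genes and 1 ins gene, those of the bean stage 3 of each family, and those of the 2-fold stage 8 flp genes and 4 ins genes. For WT embryos the 190-cell stage had 2 flp genes and 3 ins genes, the bean stage 3 of each, and the 2-fold stage 15 flp genes and 7 ins genes. Over all genes, the number with reads was 8373 and 9055 in WT 190-cell, 7814 and 9373 in WT bean and 10701 and 11531 in WT 2-fold libraries. In null libraries it was 8991 and 8091 at the bean and 8757 and 9313 at the 2-fold stage. A pattern particular to the peptide genes was not tested.

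**Figure D2:**
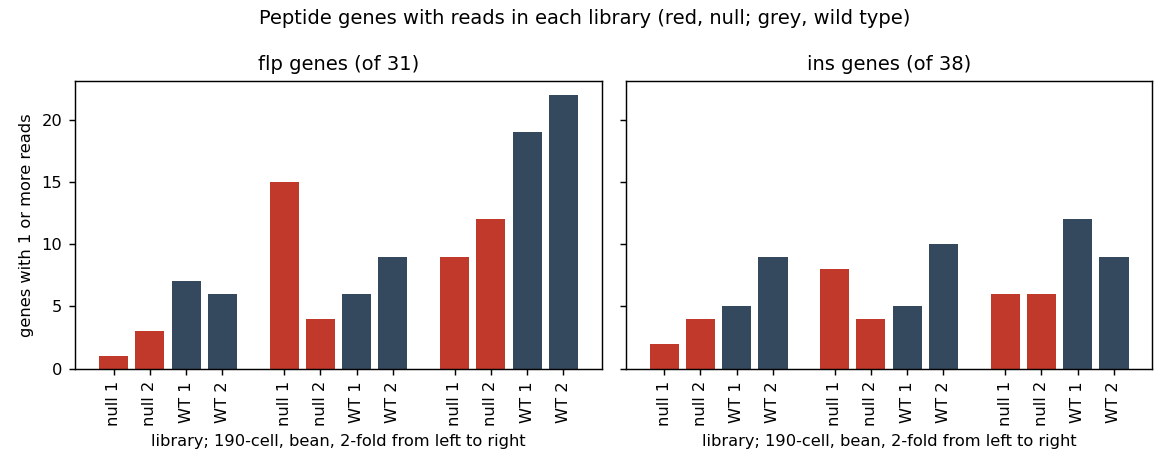
Number of flp genes (left) and ins genes (right) with 1 or more reads in each library, in red for null and grey for WT, with the 190-cell, bean and 2-fold stages from left to right. At the 2-fold stage 9 and 12 flp genes had reads in null libraries, against 19 and 22 in WT libraries, and null bean replicate 1 stands apart from its replicate with 15 against 4. Over all genes, 8757 and 9313 had reads in null 2-fold libraries and 10701 and 11531 in WT 2-fold libraries.

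The 18 genes with no read were flp-4, flp-12, flp-20, ins-8, ins-10, ins-14, ins-15, ins-16, ins-19, ins-21, ins-22, ins-23, ins-25, ins-26, ins-31, ins-32, ins-33 and ins-39. At this depth they were not detected, and the floor of 7.24 to 21.5 CPM per group is the level up to which they could have been present. Of the 17 genes with fewer than 20 reads, 2, ins-11 and ins-37, had reads in null libraries only and 13 in WT libraries only. Each of these had reads in a single library. For flp-7, flp-14, flp-17, flp-23 and flp-33 it was WT 2-fold replicate 2, the library with the most genes detected (11531). The share over all genes with so few reads was not computed, so these counts do not show a genotype difference. Just inside the threshold were ins-4 with 21 reads, ins-29 with 22 and ins-30 with 23. Just outside were flp-2 with 18 reads, ins-24 with 14, and flp-22 and ins-11 with 13 each.

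The members lie apart in the genome by family. Of the 31 flp genes, 13 are on chromosome X, and 15 of the 38 ins genes are on chromosome II. Within 10 kb of another member lie 25 ins genes and 3 flp genes (flp-2, flp-3 and flp-28). Some neighbours had different patterns. ins-2 and ins-3, which are 673 bp apart on chromosome II, averaged 127 and 4.92 CPM in null bean embryos and 205 and 4.37 CPM in WT bean embryos. ins-6, in the same stretch of chromosome II, had reads mainly at the 2-fold stage, and ins-5, 1413 bp from it, had 1 read in all. Annotated protein-coding genes overlap 13 members, 9 of them tested, and since the strand setting of the counting is not given in the sources used here, reads of an overlapping gene cannot be told apart for these.

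Among the flp ligands, flp-1 had reads in all 4 libraries of the 2-fold stage. Loss of flp-1, which is expressed in a few head interneurons, is known to give exaggerated body bends in moving larvae and adults. flp-1 (WBGene00001444, chromosome IV, 9144705 to 9146128, 6 exons, overlapped on the other strand by daf-10) stood at 27.2 and 39.3 CPM in null 2-fold embryos and at 23.5 and 41.3 CPM in WT 2-fold embryos. The genotypes overlapped completely, with a log2 change of 0.05 (SE 1.83, adjusted p = 1, edgeR). Among bean libraries flp-1 had 12.7 and 0 CPM in null libraries and 0.613 and 0 CPM in WT libraries, the higher null value being from the library that was rich in flp reads. At the 190-cell stage it had 0 and 0.562 CPM in null libraries and 26.2 and 0 CPM in WT libraries, again with a single high library. In WT embryos flp-1 had 1 read at the bean stage and 177 at the 2-fold stage, a ratio of 93.3 (95% interval 16.5 to 3707, counting reads as independent). This change missed the threshold in edgeR (adjusted p = 0.159), and it passed it when the shallow library, WT 190-cell replicate 1 and null bean replicate 1 were left out.

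flp-15 had its reads mostly at the bean stage. It encodes peptides that act on the receptor NPR-3. flp-15 (WBGene00001458, chromosome III, 13663400 to 13667839, 3 exons) stood at 20.1 and 46.1 CPM in null bean embryos and at 63.7 and 41.3 CPM in WT bean embryos. The genotypes overlapped, with a log2 change of -0.66 (SE 1.61, adjusted p = 1, edgeR). At the 190-cell stage it had 40.7 CPM, which is 1 read, and 0 CPM in null libraries, and 6.59 and 3.58 CPM in WT libraries. Its 2-fold values were 0 and 11.1 CPM in null libraries and 10.7 and 4.85 CPM in WT libraries. None of the 4 changes of flp-15 between neighbouring stages passed the test (adjusted p from 0.374 to 0.659, edgeR).

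flp-25 had reads in all 4 libraries of the 2-fold stage and in no earlier library. Its level (WBGene00010575, chromosome III, 9361528 to 9365380) was 26.8 and 9.26 CPM in null 2-fold embryos and 37.2 and 14.6 CPM in WT 2-fold embryos, with overlapping groups. Its 2-fold mean was 1.94 times the floor of the bean stage in null embryos and 3.10 times that floor in WT embryos. Such ratios to a floor leave out the error of the mean and are not lower bounds of the change from the bean stage. Neither change passed the test in edgeR (adjusted p = 0.0888 in null and 0.145 in WT embryos).

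Other flp genes with reads in all 4 libraries of the 2-fold stage did not differ between genotypes past the threshold. flp-27 had 20.1 and 7.65 CPM in null libraries and 30.9 and 6.07 CPM in WT libraries. flp-32 had 5.36 and 11.5 CPM in null libraries and 12.7 and 7.28 CPM in WT libraries. flp-19 had 0.447 and 21.2 CPM in null libraries and 13.7 and 12.1 CPM in WT libraries, so that 1 null library was below and the other above both WT libraries. flp-5 had 16.5 and 0.134 CPM in null libraries and 4.11 and 12.1 CPM in WT libraries. flp-10 had 1.79 and 8.72 CPM in null libraries, below its 27.6 and 12.1 CPM in WT libraries. flp-9 was the only member with both null libraries above both WT libraries at this stage, at 17.0 and 14.2 CPM in null libraries and 2.30 and 6.07 CPM in WT libraries. Its log2 change of 1.92 (SE 2.74, adjusted p = 0.971, edgeR) was smaller than its error.

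Some flp genes had 2-fold reads in WT embryos only, at levels near or below the null floor. Among them were flp-13 and flp-24, both of which act in the ALA neuron in stress-induced sleep, and flp-6, which is expressed in sensory neurons. flp-24 had 0 CPM in both null libraries and 12.5 and 12.1 CPM in WT libraries, where the null floor was 11.9 CPM and the WT mean 12.3 CPM. flp-13 had 0 CPM in both null libraries and 5.76 and 6.07 CPM in WT libraries, and flp-6 had 0 CPM in both null libraries and 8.55 and 6.07 CPM in WT libraries. flp-21, a ligand of the receptor NPR-1, had 0 and 2.01 CPM in null 2-fold libraries and 4.93 and 9.71 CPM in WT 2-fold libraries. None of these differences passed the test. flp-28 had 6.34 and 10.95 CPM in null bean libraries and 0 in both WT bean libraries. By the 2-fold stage it had 0 in both null libraries and 5.59 and 0 CPM in WT libraries. It lies inside the stretch of chromosome X where W07E11.1 is annotated on the other strand.

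Summed over the family, the flp level was 40.7 and 14.0 CPM in null and 98.6 and 14.9 CPM in WT embryos of 190 cells. Bean embryos had 131 and 59.0 CPM in null and 88.2 and 67.2 CPM in WT libraries. By the 2-fold stage it was 116 and 127 CPM in null and 226 and 186 CPM in WT embryos. The genotypes were apart at the 2-fold stage and overlapped before it. At the 190-cell stage the overlap came from null replicate 1, the shallow library, where 40.7 CPM was 1 flp read. The other null library was below both WT libraries, so a separation limited to the 2-fold stage was not shown. With 2 libraries against 2, the smallest p that a two-sided exact permutation test can give is 0.333, so that this test could not pass a threshold of 0.05, and no other test of the sums was run. Null 2-fold libraries held 139400 and 177590 estimated molecules in all and WT 2-fold libraries 216558 and 250177, and the part of this difference in the lower number of flp genes with reads was not tested.

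Among the ins ligands, ins-34 was lower in null embryos, and it was the only member whose level differed between genotypes past the threshold. ins-34 (WBGene00002117, chromosome IV, 14106574 to 14107737, plus strand, 2 exons) stood at 71.0 and 162 CPM in null 2-fold embryos, against 725 and 545 CPM in WT 2-fold embryos. In bean embryos it stood at 89.8 and 182 CPM in null embryos, against 487 and 272 CPM in WT embryos. At the 190-cell stage it stood at 40.7 and 122 CPM in null embryos and at 103 and 185 CPM in WT embryos. The groups were apart at the bean and 2-fold stages and overlapped at the 190-cell stage.

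In 2-fold embryos ins-34 averaged 117 ± 64.6 CPM in null embryos and 635 ± 128 CPM in WT embryos (SD, n = 2 each), a 5.43-fold lower level in null embryos with a log2 change of -2.44 (SE 0.53, adjusted p = 0.00896, edgeR). Averaged over the 3 stages the log2 change was -1.46 (SE 0.31, adjusted p = 0.00473, edgeR). For the bean stage it was -1.48 (SE 0.51) and did not pass after adjustment (adjusted p = 0.439, edgeR), and at the 190-cell stage it was -0.46 (SE 0.56, adjusted p = 1, edgeR). The size of the genotype difference was not shown to change between stages: the 2-fold difference minus the 190-cell difference was -1.98 on the log2 scale (SE 0.75, adjusted p = 0.434, edgeR). Leaving out null 2-fold replicate 1 gave a 2-fold change of -1.90 that missed the threshold (adjusted p = 0.110). Leaving out null 190-cell replicate 2 gave an average of -1.83 that also missed it (adjusted p = 0.0640). The bean difference was called only when counts were divided by the estimated reads per molecule.

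Within each genotype, the level of ins-34 over time was not shown to change. From the 190-cell to the bean stage the log2 change was 0.38 (SE 0.56, adjusted p = 0.893) in null embryos and 1.40 (SE 0.51, adjusted p = 0.144) in WT embryos by edgeR, the WT change being called with DESeq2 size factors. From the bean to the 2-fold stage it was -0.22 (SE 0.50, adjusted p = 0.901) in null embryos and 0.74 (SE 0.50, adjusted p = 0.515) in WT embryos. In order of stage, the null means stood at 81.6, 136 and 117 CPM and the WT means at 144, 379.7 and 635 CPM.

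**Figure D3:**
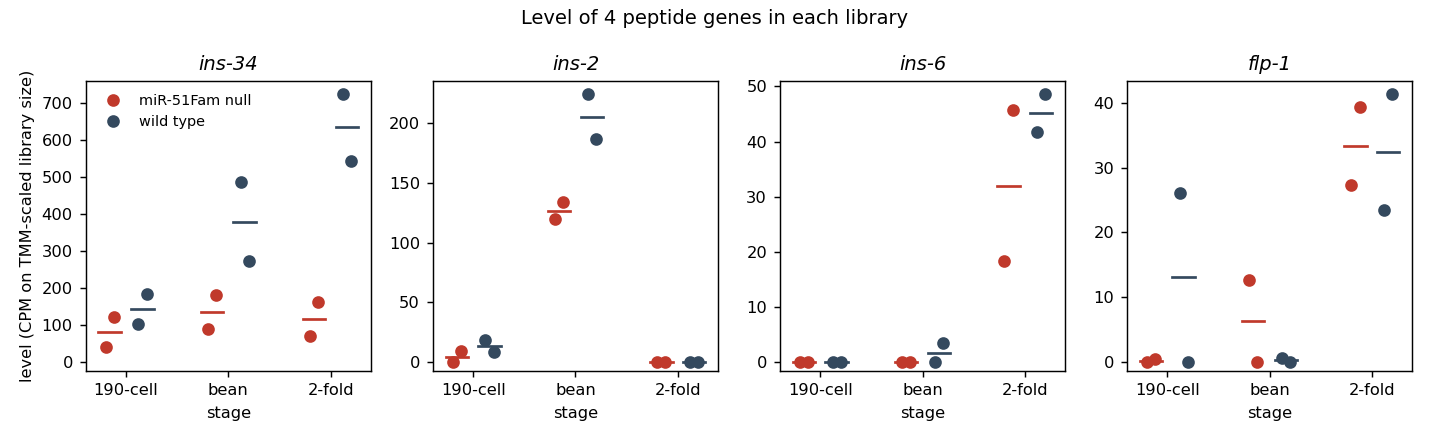
Level in CPM of ins-34, ins-2, ins-6 and flp-1 by stage, with 1 point per library, null in red on the left and WT in grey on the right, and a bar at each mean of 2 libraries. For ins-34 the null points lie at 71.0 and 162 CPM and the WT points at 545 and 725 CPM at the 2-fold stage. The bean points of ins-2 and the 2-fold points of ins-6 lie above those of the other stages in both genotypes. For flp-1 the stages overlap, with 26.2 CPM in WT 190-cell replicate 1 and 23.5 CPM in WT 2-fold replicate 1.

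Maternal yolk genes were lower in null libraries, as given above. The summed vitellogenin level was 1053 and 3327 CPM in WT 2-fold replicates 1 and 2, where ins-34 had 725 and 545 CPM, and it was 4278 CPM in WT 190-cell replicate 1, where ins-34 had 103 CPM. Without WT 190-cell replicate 1 and WT 2-fold replicate 2, the libraries highest in yolk genes, the 2-fold log2 change of ins-34 was -2.72. This choice was made after the data were seen. It leaves a single WT 2-fold library, the one with the higher ins-34 level. That library had 1053 CPM of vitellogenin, against 0 and 6.17 CPM in null 2-fold libraries. Germline markers were also lower in null libraries. The part of yolk and germline RNA in the ins-34 result was not tested. The 3′ end of ins-34 overlaps that of nkcc-1, a gene on the other strand (WBGene00012543, chromosome IV, 14107656 to 14124056), by 82 bp. nkcc-1 had 96.5 and 133 CPM in null 2-fold embryos and 70.4 and 58.3 CPM in WT 2-fold embryos, the opposite order to ins-34, with a log2 change of 0.83 that did not pass the test (adjusted p = 0.910, edgeR). ins-34 is also the only member within 100 kb of a deleted miRNA gene: it lies 72467 bp from mir-52 (chromosome IV, 14034008 to 14034107), so that loss of the miRNA and other differences of the mutant chromosome cannot be told apart.

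ins-2 was the gene with the clearest stage pattern, and the pattern was seen in both genotypes. ins-2 (WBGene00002085, chromosome II, 5988524 to 5989426, 2 exons) stood at 0 and 9.55 CPM in null embryos and at 18.3 and 8.95 CPM in WT embryos at the 190-cell stage. In bean embryos it stood at 119.3 and 134 CPM in null embryos and at 224 and 186 CPM in WT embryos. By the 2-fold stage it stood at 0.447 and 0 CPM in null embryos and at 0.164 and 0 CPM in WT embryos, which is 1 read in each genotype. All 4 bean libraries were thus above all 8 others.

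The increase of ins-2 into the bean stage was 3.82 on the log2 scale (SE 0.98, adjusted p = 0.0163, edgeR) in null embryos and 3.88 (SE 0.80, adjusted p = 0.00194, edgeR) in WT embryos. The decrease after it was past the threshold in both (adjusted p = 1.52e-06 in null and 2.39e-06 in WT embryos, edgeR). From the reads, the bean level exceeded the 2-fold level by a ratio of 1255 (95% interval 225 to 49612) in null embryos and of 1402 (251 to 55434) in WT embryos, intervals that count reads as independent and are too narrow where reads are copies of a molecule. The null increase into the bean stage was lost without null 190-cell replicate 2 (adjusted p = 0.797), which leaves the shallow library alone in that group, and also without WT bean replicate 1 (adjusted p = 0.0597) or null bean replicate 2 (adjusted p = 0.0563). Both null bean libraries were below both WT bean libraries, but the log2 difference was -0.70 (SE 0.71, adjusted p = 0.905, edgeR).

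ins-6 and ins-27 had reads almost only at the 2-fold stage. ins-6, a DAF-2 agonist known for promoting exit from dauer, (WBGene00002089, chromosome II, 6000436 to 6001009) stood at 18.3 and 45.7 CPM in null 2-fold embryos and at 41.8 and 48.5 CPM in WT 2-fold embryos, with overlapping groups and a log2 difference of -0.49 (SE 1.72, adjusted p = 1, edgeR). Before that stage it had 3.49 CPM in WT bean replicate 2 and no other read. The null 2-fold mean was 3.45 times the null bean floor, and the rise from the bean stage was called (adjusted p = 0.0265, edgeR). That call was lost without WT 2-fold replicate 1, null bean replicate 2 or null 2-fold replicate 2. In WT embryos the log2 change was 4.63 (SE 2.03) and did not pass (adjusted p = 0.260). ins-27 had 10.3 and 26.0 CPM in null 2-fold embryos and 26.6 and 10.9 CPM in WT 2-fold embryos, and no read in the other 8 libraries. The 2-fold means of ins-27 were 1.96 times the bean floor in null and 2.25 times in WT embryos. Neither change from the bean stage passed the test (adjusted p = 0.108 and 0.204, edgeR).

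ins-1, which antagonises DAF-2 signalling in C. elegans, had a similar order of stages. It stood at 8.04 and 25.4 CPM in null 2-fold embryos and at 71.6 and 24.3 CPM in WT 2-fold embryos, and before that stage had 3.99 CPM in WT bean replicate 2 only. Its genotype difference at the 2-fold stage was -1.52 on the log2 scale (SE 1.89, adjusted p = 0.938, edgeR), with 1 null library inside the WT range. The null 2-fold mean was 1.80 times the null bean floor. The null change from the bean to the 2-fold stage missed the threshold in edgeR (adjusted p = 0.0577).

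The remaining ins genes had low and scattered levels. ins-35 was highest at the 190-cell stage, at 0 and 55.6 CPM in null embryos and 4.94 and 57.3 CPM in WT embryos, the 0 being the shallow library. Later, in 2-fold embryos, it had no reads in null embryos and 0 and 10.9 CPM in WT embryos. ins-13, which lies within acdh-2 on the same strand, had reads at the bean stage only, at 10.6 and 2.46 CPM in null embryos and 14.7 and 0 CPM in WT embryos. ins-36 had reads at the 190-cell stage only, at 0 and 21.3 CPM in null embryos and 0 and 1.79 CPM in WT embryos. ins-7, a DAF-2 agonist, and ins-4 had no reads in null embryos and at most 6.09 and 3.45 CPM in a WT library, below the null floor at every stage.

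The ins sum at the 2-fold stage was 109 and 272 CPM in null embryos and 885 and 653 CPM in WT embryos. Of the ins reads at that stage, ins-34 made up 65.4% and 59.8% in null libraries and 81.9% and 83.5% in WT libraries. Without ins-34 the sum was 37.5 and 109 CPM in null and 160.0 and 108.02 CPM in WT 2-fold embryos, which overlap. The separation of the genotypes in the ins sum was therefore not kept without ins-34. The overlap was narrow, at 109 CPM in a null and 108.02 CPM in a WT library, and the part of the other ins genes was not tested.

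Counted over the 34 tested members, the genotype contrasts gave few calls. In order of stage, 14, 7 and 3 members had no read in either genotype, beside 2556, 1791 and 574 of all genes tested. Such genes could not be called at that stage. In the average and the tests of change, members with a group without reads often had a p near 1 whatever their fitted change. For flp-24 the average was -4.36 on the log2 scale (unadjusted p = 0.9997, edgeR). At the 190-cell stage 0 members were called, where 0.216% of the 12062 genes tested were called, with 0 members at an unadjusted p under 0.05 in edgeR (all genes 7.09%) and 0 called by DESeq2. At the bean stage 0 members were called (all genes 0.0663%), with 3 at an unadjusted p under 0.05 (ins-1, ins-6 and ins-34, where all genes gave 7.27%) and 0 called by DESeq2. At the 2-fold stage 1 member, ins-34, was called lower (all genes 1.77% lower, 2.16% in either direction), with 2 at an unadjusted p under 0.05 (ins-34 and ins-35, where all genes gave 10.7%), and DESeq2 also called ins-34 alone (all genes 4.34%). In the average of the 3 stages 1 member, again ins-34, was called lower (all genes 3.59% lower, 4.52% in either direction). A single call among 34 is near the share over all genes. Tests of whether the genotype difference changed between stages called 0 members by edgeR and 0 by DESeq2, where all genes gave 0.0912% (bean minus 190-cell), 0.315% (2-fold minus bean) and 0.605% (2-fold minus 190-cell). At an unadjusted p under 0.05 they gave 2 (flp-1 and flp-28), 2 (flp-6 and flp-28) and 1 (ins-34) of the 34, where all genes gave 5.86%, 6.42% and 7.33%.

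**Figure D4:**
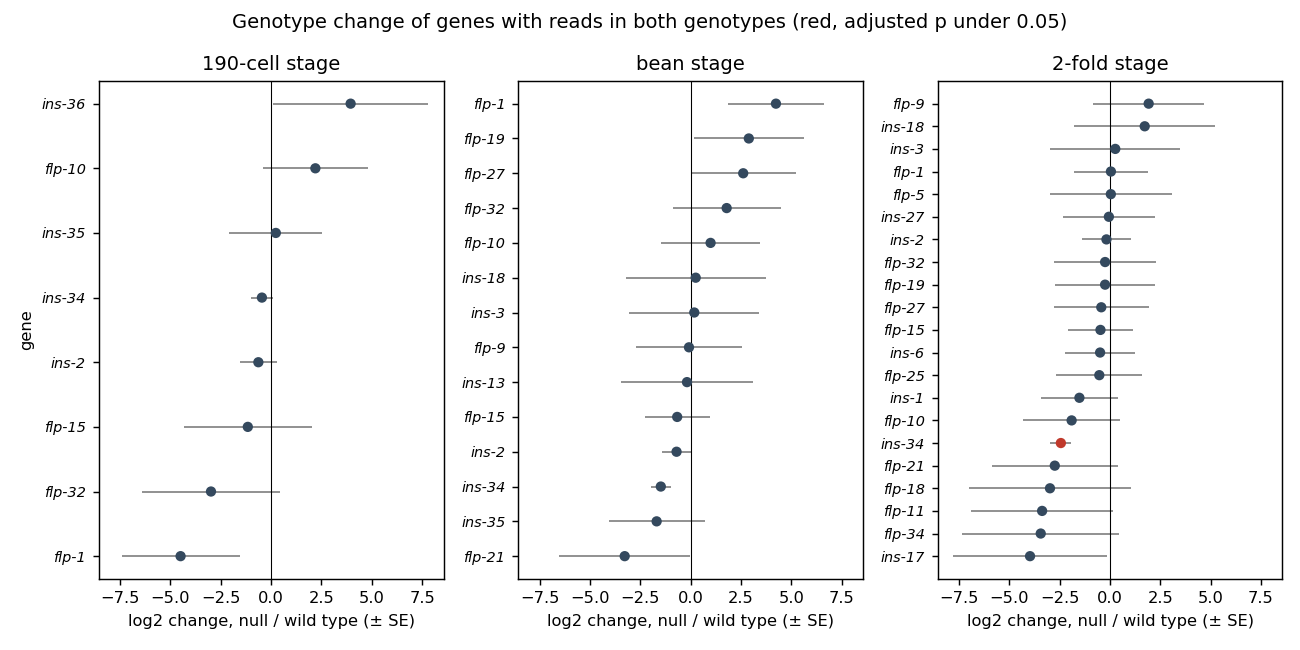
Log2 change of null over WT (points) with its standard error (lines) for members with reads in both genotypes, in 1 panel per stage, with adjusted p under 0.05 in red. Of 8, 14 and 21 such members in order of stage, only ins-34 at the 2-fold stage, at -2.44, is red, and most other lines cross 0.

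The order of the libraries and the sign of the fitted changes were also counted over the members, called or not, and no difference between stages was tested. At the 2-fold stage 10 members had both null libraries below both WT libraries (all genes 25.9%), and 1, flp-9, had both above (all genes 16.1%). Among bean libraries 3 members, flp-21, ins-2 and ins-34, had both null libraries below (all genes 16.7%) and 1, flp-28, had both above (all genes 17.1%). At the 190-cell stage 1, flp-19, had both below (all genes 25.0%) and 0 both above (all genes 2.68%). Of the members with reads in both genotypes at the 2-fold stage, 16 of 21 had a negative log2 change, with a median of -0.47, beside 52.8% and a median of -0.07 over all genes with reads in both. In bean embryos 7 of 14 were negative, with a median of 0.05, beside 47.8% and 0.05 over all genes. At the 190-cell stage 5 of 8 were negative, with a median of -0.55, beside 62.8% and -0.28 over all genes. Of the tested members, 0 had 2-fold reads in null embryos only and 10 (29.4%) in WT embryos only, beside 3.06% and 12.7% of all genes. Among these 10, 5 (flp-13, flp-24, ins-4, ins-7 and ins-29) had no read in any null library and passed the count filter through WT reads alone. The share over all genes was not matched for level, so this count cannot show a genotype difference.

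Between stages, the calls were those of ins-2 and ins-6. From the 190-cell to the bean stage 1 member, ins-2, rose in null embryos (all genes 4.63% higher, 5.31% in either direction), and in WT embryos likewise 1, ins-2 (all genes 4.18% higher, 5.02% in either direction). From the bean to the 2-fold stage 1 member fell (ins-2) and 1 rose (ins-6) in null embryos (all genes 4.44% lower and 4.48% higher, 8.91% in either direction), and 1, ins-2, fell in WT embryos (all genes 1.19% lower, 4.35% in either direction). No flp gene was called in edgeR in any of these 4 comparisons, and at an unadjusted p under 0.05 null embryos had 0 of 19 in the earlier interval (all genes 15.04%) and 1, flp-25, in the later one (all genes 22.5%). In WT embryos the numbers were 1, flp-1 (all genes 13.1%), and 2, flp-1 and flp-25 (all genes 15.2%). DESeq2 called flp-25 in the null change from the bean to the 2-fold stage. In that change DESeq2 called 4 members, which added ins-1 and flp-25, beside 12.7% of all genes by the same test.

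Genes that process peptide precursors did not differ between genotypes past the threshold. All 9 on the list were tested (the proprotein convertases egl-3, kpc-1, aex-5 and bli-4, the carboxypeptidase egl-21, the convertase chaperone sbt-1, and the amidation enzymes pamn-1, pgal-1 and pghm-1), and 0 were called at any stage by edgeR, with 0, 1 and 1 at an unadjusted p under 0.05 in order of stage and 0 called by DESeq2. pamn-1 rose in null embryos from the bean to the 2-fold stage, at 28.5 and 33.1 CPM in null bean and 199.6 and 193 CPM in null 2-fold libraries (log2 change 2.67, SE 0.80, adjusted p = 0.0321, edgeR). Leaving out any of these 4 libraries removed that call, with an adjusted p of up to 0.112. In WT embryos pamn-1 had 13.5 and 35.9 CPM at the bean stage and 96.1 and 40.0 CPM at the 2-fold stage and was not called. egl-3, the convertase that cuts most neuropeptide precursors, stood at 26.3 and 35.6 CPM in null 2-fold embryos and 16.3 and 20.6 CPM in WT 2-fold embryos, and in 3 of the 4 bean libraries it was at 0.498 CPM or less.

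Of the 11 genes of dense-core vesicle transport and release, 0 were called between genotypes by edgeR, with 1, 1 and 0 at an unadjusted p under 0.05 in order of stage and 0 called by DESeq2. unc-104, the kinesin that carries vesicles along axons, rose from the bean to the 2-fold stage in WT embryos (adjusted p = 0.0246, edgeR): its WT bean libraries had no read, and at the 2-fold stage it had 66.1 and 49.6 CPM in null libraries and 43.6 and 58.3 CPM in WT libraries. The call was lost in 5 of 20 alternatives. unc-31, the factor that primes dense-core vesicles for fusion, had no read in null 2-fold libraries and 6.74 and 0 CPM in WT 2-fold libraries, under the null floor.

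Most receptors for these peptides had fewer than 20 reads in total. The list held 80 genes named npr, frpr or dmsr with a number, and egl-6. Of them 32 were tested and 29 had no read. None was called between genotypes by edgeR, with 0, 0 and 1 at an unadjusted p under 0.05 in order of stage and 0 called by DESeq2. The summed receptor level was 103 and 160.4 CPM in null and 166 and 148 CPM in WT embryos at the 2-fold stage. frpr-7 fell in null embryos from the bean to the 2-fold stage (adjusted p = 0.0280, edgeR), with 16.9 and 12.5 CPM in null bean libraries, 14.1 and 22.9 CPM in WT bean libraries and no read in any 2-fold library. That call was lost in 5 of 20 alternatives.

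Downstream of the insulin-like peptides, values are given for the DAF-2 receptor gene and the transcription factor of its pathway. daf-16, the FOXO transcription factor at the end of the pathway, was highest at the bean stage in both genotypes. It stood at 0 and 32.0 CPM in null and 20.4 and 8.95 CPM in WT 190-cell embryos. Bean embryos had 209.6 and 138 CPM in null and 153 and 137 CPM in WT libraries, and 2-fold embryos 4.47 and 16.4 CPM in null and 48.7 and 37.6 CPM in WT libraries. The rise into the bean stage was called in WT embryos (log2 change 3.28, SE 0.76, adjusted p = 0.00609, edgeR) but not without WT 190-cell replicate 2 (adjusted p = 0.0700), and the decrease after it was called in null embryos (-4.01, SE 0.78, adjusted p = 0.000925). The null rise was 2.65 (SE 0.84, adjusted p = 0.0665, edgeR) and the WT decrease was -1.74 (SE 0.71, adjusted p = 0.210, edgeR), and neither passed. The decrease was not shown to differ between genotypes (null minus WT -2.27, SE 0.99, adjusted p = 0.673, edgeR). The genotype difference of daf-16 at the 2-fold stage was -2.01 (SE 0.73) and did not pass (adjusted p = 0.192, edgeR). daf-2, the receptor, ranged over 0.268 to 17.0 CPM in null 2-fold libraries and over 8.50 to 14.5 CPM in WT 2-fold libraries. daf-28, an insulin-like gene outside the ins naming, had reads in WT 190-cell replicate 2 only.

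**Figure D5:**
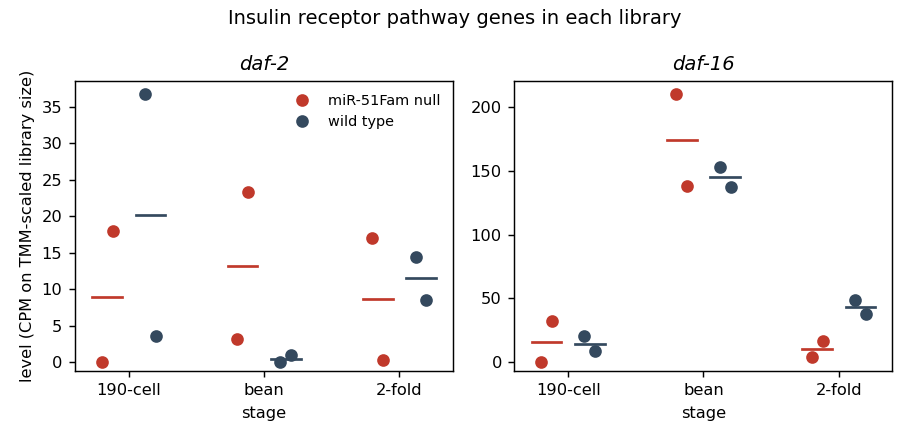
Level in CPM of the receptor daf-2 and the transcription factor daf-16 by stage, with 1 point per library, null in red on the left and WT in grey on the right, and a bar at each mean. The bean points of daf-16 lie at 209.6 and 138 CPM in null and at 153 and 137 CPM in WT libraries, above its points at the other stages in both genotypes.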

How the data were processed

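Per the labels and the study's methods, the authors extracted unique molecular identifiers, trimmed adaptors and the first 4 bases, mapped reads to WBcel235 with STAR, removed duplicates and deposited HTSeq counts per gene, 1 file per library, not normalised. The annotation release, the strand setting and tool versions are not given in the sources used here. Lines that name no gene were left out of library sizes and tests: 4.00% to 8.65% of the reads in a file fell outside genes, 0.0472% to 0.0882% were ambiguous and 39.3% to 63.5% mapped to several places. Gene symbols and positions come from the WBcel235 annotation.

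Deep libraries held many expressed genes at 0 reads, so reads per molecule were estimated from genes at 1 to 3 CPM in the other libraries, by setting their mean reads against their share of zeros under Poisson sampling. The other libraries included all stages and both genotypes. Zeros of genes that are off in a group therefore count too and would raise the estimate and the floors. The estimate was not checked against the stated removal of duplicates. Floors are 3 such molecules over a group and cover counting error only.

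Genes with 20 or more counts in total (12062) were fitted together in edgeR 4.0.16 (R 4.3.3), with TMM scaling and 6 group means, and 11 contrasts were tested by the robust quasi-likelihood test, two-sided, with Benjamini-Hochberg adjustment over all tested genes. A gene was called at an adjusted p under 0.05. The labels do not say that replicates came from separate cultures, so p-values measure the spread between these samples. All libraries share 1 batch label. Alternatives were DESeq2 1.42.0 and its size factors, other count minimums (1 and 100), a replicate block, molecule-scaled counts, each stage alone and leaving out each library. Members named are those called in a contrast and the 12 flp and 8 ins genes of highest mean CPM. Others named were singled out after their values were seen. The members and lists were chosen with earlier results of these data known. The fitting code was tested on simulated data for the 2-fold genotype contrast. It called 3.7% of the genes with a true log2 change of size 2 and 67.7% of those with size 4. The changed genes in that simulation had levels above those of most members. Smaller changes, or changes at lower levels, could thus be missed. A gene of the DAF-2 pathway list is not reported here.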

Additional observations from a re-analysis of the deposited data

How the results depend on the processing

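The called changes of ins-2, ins-34 and ins-6 kept their direction under every alternative run. Directions of other members were not followed over the alternatives. The count of members called between genotypes at the 190-cell stage and the 3 counts for changes of the genotype difference stayed at 0 under every alternative. At the bean stage molecule-scaled counts gave 1 call, ins-34. At the 2-fold stage and in the average, leaving out 1 library gave 0 to 1. For WT embryos from the 190-cell to the bean stage, the count was 2 (ins-34 added) with DESeq2 size factors, without the count filter and with molecule-scaled counts, and 1 to 2 when 1 library was left out. For WT embryos from the bean to the 2-fold stage it was 2 (flp-1 added) without the filter and also without the shallow library, WT 190-cell replicate 1 and null bean replicate 1, a choice made after seeing the data, 4 (flp-1, ins-1 and ins-6 added) with molecule-scaled counts, and 1 to 2 when 1 library was left out. For null embryos from the 190-cell to the bean stage, leaving out 1 library gave 0 to 1. From the bean to the 2-fold stage it was 4 with the DESeq2 test and 4 without the 2 WT libraries highest in yolk genes, also chosen after seeing the data, and 1 to 3 when 1 library was left out. The cause of these changes was not tested. The summed flp level at the 2-fold stage was 142 CPM in null and 239 CPM in WT embryos with DESeq2 size factors, against 122 and 206 CPM with TMM. DESeq2 size factors moved the median log2 change of all genes by 0.24 in the null change and by 0.36 in the WT change from the bean to the 2-fold stage, by -0.13 in the null change before it, by 0.15 in the genotype difference at the 190-cell stage and by -0.17 in its change to the bean stage.

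Replicate numbers are shared between groups, but same-numbered libraries did not deviate together: over 6028 genes the 15 correlations between groups ran from -0.177 to 0.194. With a replicate block the count of calls was 4 for the null change from the bean to the 2-fold stage and 2 for the WT change, and the other counts kept theirs.

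Depth limits what can be said of most members. Group floors of 7.24 to 21.5 CPM lie above the mean level of most flp genes, and null 190-cell replicate 1 adds little to its group.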
